A study of Homo sapiens with 4 samples.

Results

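The genes whose symbols begin KCN encode the potassium channels of human cells, together with several of the small proteins that bind them. They were read from 4 expression arrays of untreated HEK293 cells. HEK293 is a cell line derived from embryonic kidney and transformed with adenovirus sequence, and cloned channels are often expressed in it for recording. The sample titles give 1 group of 4 numbered replicates, and the study's methods name no genetic change and no treatment of them. By those methods the cells were grown in DMEM with fetal bovine serum and antibiotics. Each replicate had a plate and an RNA extraction of its own. Members were chosen by name alone. Of 17217 genes that could be named on the array, 93 begin KCN, and they were read by 357 of 71998 probes. The reference gene table holds 96 protein-coding KCN genes, and no target on the array was matched to KCNJ18, KCNK9 or KCNU1. Since 4875 targets could not be named, whether the array measures these genes is not known. No filter on low values was applied in the main results, and all 93 members entered their tests. An alternative setting, given at the end, left out the lowest genes.

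Potassium channels let potassium ions leave a cell along their gradient and so draw the membrane towards a negative potential. Voltage-gated pore subunits open on depolarisation and end action potentials. Inward rectifiers and the tandem-pore channels, which carry a pair of pore domains in each subunit, hold the resting potential, and calcium-activated channels tie potassium efflux to the calcium signal. Electrically silent Kv subunits make no channel of their own and alter the channels of other Kv subunits, and auxiliary subunits change gating or trafficking. HEK293 cells serve as hosts for cloned potassium channels because their own potassium currents are small.

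The measure used here is the distance of a gene's log2 level to a baseline on the same array. The baseline is the mean plus 2 SD of the seminal protein genes that the study took as not transcribed in these cells, of which 10 could be matched. It was 10.10 ± 0.52 log2 units (SD, n = 4 arrays), from 9.47 on replicate 1 to 10.69 on replicate 3. A gene is called above the baseline where its mean distance over the 4 arrays is over 0. Each probe has its own affinity, so the distances of different genes do not rank their amounts of transcript, and in a bulk RNA sample fewer expressing cells and less RNA per cell cannot be told apart. Cell type markers are given as a description and not as a check of the label, since their lists were chosen with earlier results known. Of 8 genes known from this line or its kidney origin 7 were above the baseline, against 52.7% of all named genes. The 7 included VIM at 5.26 ± 0.64, NEFL at 4.01 ± 0.56 and CDH2 at 4.59 ± 0.73 log2 units (SD, n = 4 for each). PAX2, at -1.63 ± 0.74 (SD, n = 4), was below the baseline. None of 8 mature kidney, 6 blood and endothelial and 5 muscle markers was above it, while 2 of 4 neuronal markers (SYP and MAPT) and 1 of 4 fibroblast markers (COL1A1) were. NEFM, another of the HEK293 genes, was above the baseline on replicates 1 and 3, by up to 4.10, and below it on replicates 2 and 4, down to -2.24. The arrays as a whole showed the same pairs, with Pearson's r across genes, which are not independent replicates, of 0.971 between replicates 1 and 3 and 0.977 between replicates 2 and 4, and of 0.949 to 0.959 between the others. The labels give no such pairing, and its part in the results was not tested.

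Of the 93 potassium channel genes 7 were above the baseline (7.53%), against 52.7% of all named genes. Their share minus that of the 17124 other genes was -45.4 percentage points, which is a description, since genes are not replicates. Among the 7 were the tandem-pore channels KCNK1 and KCNK6, the voltage-gated subunits KCNQ5 and KCNB2, the silent subunit KCNS3 and the auxiliary subunit KCNMB4. Above the baseline on all 4 arrays were 4 members (4.30%), KCNK1, KCNS3, KCNMB4 and KCNK6, against 45.0% of all genes. The one-sided limma test, adjusted by Benjamini-Hochberg over all 17217 genes, called 5 members, these 4 and KCNQ5, against 45.9% of all genes. A further 83 members were below the baseline on every array. The median member had a mean distance of -2.70 log2 units, and the median of all named genes was 0.26.

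The position of the values on the arrays is given next as a description of probe values, with no reading of transcript amounts. With all named genes ranked by mean log2 level and cut into 4 equal bins, 55 of 93 members (59.1%) lay in the lowest bin, 33 and 5 in the next bins and 0 in the highest. The mean level of 55 members (59.1%) was at or below 7.69 log2 units, under which 95% of the 364 olfactory receptor genes lay, and 24.9% of all genes were at or below it. The count of members above the baseline did depend on the controls, because the control genes AFG2A (SPATA5 in the study) and SPATA13 had mean levels of 9.97 and 9.72 log2 units while the other 8 lay between 6.53 and 7.25. Without that pair the baseline was 7.78, and 36 members (38.7%) and 74.0% of all genes were above it. With olfactory receptor genes as controls it was 8.02, and 28 members (30.1%) and 71.4% of all genes were above it.

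**Figure D1:**
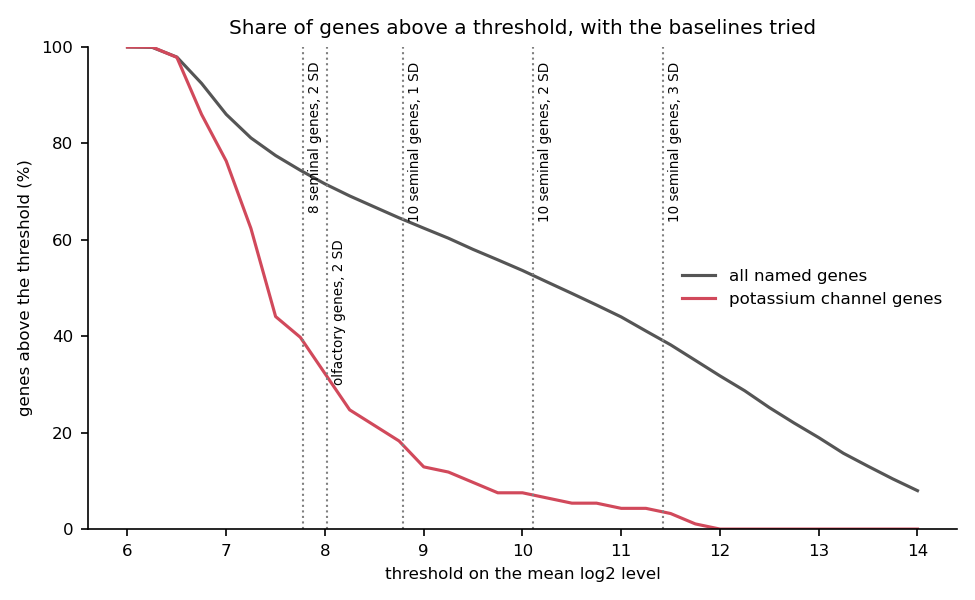
Share of genes (%, vertical axis) whose mean log2 level over the 4 arrays is above a threshold (horizontal axis), for the 93 potassium channel genes and for all 17217 named genes. Dotted lines mark the baseline used and baselines from other controls or other numbers of SDs. At each of them the potassium channel curve lies below that of all genes, as with 7.53% against 52.7% at the baseline used.

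Of the 14 tandem-pore, or background, channels 2 were above the baseline on all arrays, against 45.0% of all genes. KCNK1, a weak inward rectifier of this group, stood 2.49 and 1.98 log2 units above the baseline on replicates 1 and 2, and 1.09 and 1.19 on replicates 3 and 4. Every array was above 0, and the mean of 1.69 ± 0.67 (SD, n = 4) exceeded the spread between arrays (limma adjusted p = 2.35e-06). The levels before subtraction ran from 11.51 to 11.96 with an SD of 0.20, so the spread of the distance followed the baseline of each array. The reading came from 2 of the 3 probes, at 2.18 and 2.24, while the third lay at -1.56 and below the baseline on each array.

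KCNK6, a relative of KCNK1, stood at 0.99, 1.43, 0.33 and 0.73 log2 units above the baseline on replicates 1 to 4. Its mean was 0.87 ± 0.46 (SD, n = 4, limma adjusted p = 0.015), and without replicate 2 it was 0.68 and no longer passed the test (limma adjusted p = 0.131). Of its probes 2 lay at 1.19 and 1.33 and the third at -0.80. The gene overlaps YIF1B in the reference gene table, whose distance was 2.03, and because the labelling copied both strands of the cDNA, the array does not tell the strands of an overlap apart. Whether the KCNK6 probes lie in the shared stretch was not tested. The remaining 12 tandem-pore genes lay below the baseline on every array, from KCNK15 at -3.35 to KCNK16 at -1.15. Among them were the mechanosensitive channel KCNK2 at -2.26 ± 0.58 and the acid-sensitive channel KCNK3 at -2.10 ± 0.76 (SD, n = 4 for each).

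Voltage-gated pore subunits form the largest group, and 3 of 30 were above the baseline, against 52.7% of all named genes. Of the 3, KCNQ5 alone was left without replicate 2, when 52.3% of all named genes were above. KCNQ5 belongs to the family that carries the M current, a slow potassium current that restrains repetitive firing. Its distance on replicates 1 to 4 was -0.12, 2.05, 1.57 and 2.42. Replicate 1 stood below the other arrays, also in the level before subtraction, which was 9.35 there and 11.99 to 12.74 on the others. The mean was 1.48 ± 1.12 (SD, n = 4, limma adjusted p = 3.36e-05). That p used the common standard error of 0.351 log2 units, while the gene's own was 0.562. All 3 probes of KCNQ5 had a mean above the baseline, at 0.28, 0.50 and 2.43. Its relatives KCNQ1, at -2.39 ± 0.56, and KCNQ3, at -3.03 ± 0.55, were below on every array (SD, n = 4 for each).

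KCNB2, a delayed rectifier subunit, stood at 0.06, 1.05, -1.01 and 0.68 on replicates 1 to 4. Its mean of 0.20 ± 0.90 (SD, n = 4) was within the spread between arrays (limma adjusted p = 0.569), and it was -0.09 without replicate 2. It was higher on replicates 2 and 4 than on replicates 1 and 3. KCNC4, a subunit of fast Kv channels, was the member nearest below, at -0.36, -0.44, -0.80 and 0.06, with a mean of -0.39 ± 0.35 (SD, n = 4).

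The KCNA, KCND and KCNH families gave no member above the baseline, against 52.7% of all named genes. All 8 KCNA genes, the Shaker family, were below on every array, and the highest was KCNA3, known from lymphocytes, at -1.34 ± 0.64 (SD, n = 4). The 3 KCND genes of the fast transient current lay from -3.68 (KCND2) to -1.98 (KCND3). Among the 8 KCNH genes the highest was KCNH2, the hERG channel that repolarises the heart, at -1.27 ± 0.37 (SD, n = 4).

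**Figure D2:**
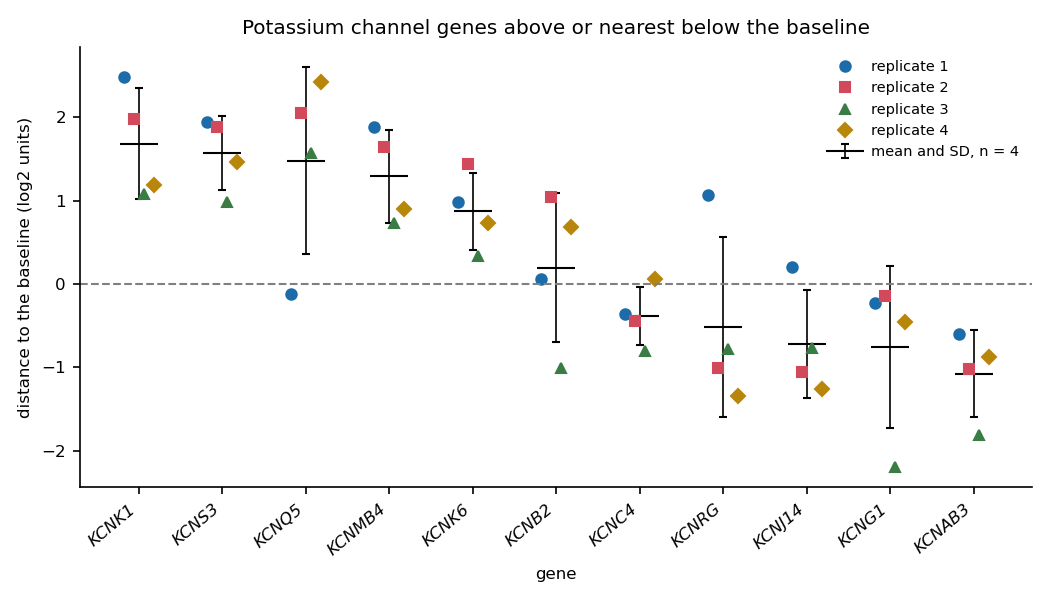
Distance to the baseline (log2 units, vertical axis) of 6 potassium channel genes with a mean above it and the 5 nearest below, with 1 symbol per array and the mean and SD over 4 arrays in black. KCNK1, KCNS3, KCNMB4 and KCNK6 lie above the dashed baseline on all 4 arrays, KCNQ5 dips to -0.12 on replicate 1, and KCNB2 lies on both sides.

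Among 10 electrically silent Kv subunits KCNS3 alone was above the baseline, against 52.7% of all named genes. It stood at 1.94, 1.88, 0.98 and 1.47 log2 units on replicates 1 to 4, with no array near 0. The mean was 1.57 ± 0.44 (SD, n = 4, limma adjusted p = 1.13e-05), more than the spread between arrays. Its 3 probes lay close together, at 1.36, 1.58 and 1.71. With KCNQ5 it was the only member of the 93 whose probes all had a mean above the baseline. Every KCNS3 probe was above it on each array. A KCNQ5 probe was below it on replicates 1 and 3, at -2.11 and -0.72, and another on replicate 1, at -0.68. KCNS3 is known to act only in combination with the KCNB subunits, of which KCNB2 was at the baseline. KCNG1, another silent partner of the KCNB channels, stood at -0.23, -0.14, -2.20 and -0.45, with replicate 3 apart from the others and a mean of -0.76 ± 0.97 (SD, n = 4). The remaining silent subunits ranged from KCNS1 at -3.57 to KCNG3 at -1.41.

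None of 7 pore subunits gated by calcium or sodium was above the baseline on any array, and none was above it with any of the control sets tried. By mean, 52.7% of all named genes were above the baseline. Their mean distances lay in a narrow band, from KCNT2 at -3.50 to KCNN4 at -2.78. KCNMA1, the pore of the large-conductance calcium-activated (BK) channel, lay at -2.83 ± 0.29 and KCNN4, the intermediate-conductance channel, at -2.78 ± 0.60 (SD, n = 4 for each). Yet KCNMB4, an auxiliary subunit known as a partner of KCNMA1, was above the baseline on all 4 arrays, at 1.88, 1.65, 0.73 and 0.91. Its mean was 1.29 ± 0.56 (SD, n = 4, limma adjusted p = 0.000303). It rested on 1 probe at 2.45, with the others at 0.10 and -0.40, and with the median of the probes it fell to 0.33 (limma adjusted p = 0.330). The other 3 KCNMB genes were below the baseline, with KCNMB2 at -3.62.

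The inward rectifiers gave no member above the baseline by mean (0 of 15, with 0 called by limma, and 0 members of this group with an unadjusted p under 0.05). Of all named genes 52.7% were above it and 45.9% were called. KCNJ14, a member of the strongly rectifying Kir family, was nearest, at 0.20, -1.06, -0.76 and -1.26 on replicates 1 to 4, with a mean of -0.72 ± 0.65 (SD, n = 4). It overlaps GRWD1 in the reference table, whose distance was 2.94, and the part of this overlap in the reading was not tested. KCNJ3 and KCNJ6, subunits of the channels opened by G protein beta and gamma subunits, lay at -2.95 ± 0.49 and -3.29 ± 0.40 (SD, n = 4 for each). KCNJ11, the pore of the ATP-sensitive channel, lay at -1.64 ± 0.82, and KCNJ10, known from glia and kidney, at -2.72 ± 0.28 (SD, n = 4 for each). KCNJ12, at -2.30 ± 0.69 (SD, n = 4), has a near-identical copy in KCNJ18, and whether its probes match both was not tested.

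Among 17 auxiliary and regulatory genes KCNMB4 was the one above the baseline, against 52.7% of all named genes. KCNRG, a soluble protein that hinders the assembly of Kv channels, stood at 1.07, -1.005, -0.78 and -1.34 on replicates 1 to 4, so that replicate 1 was above the baseline and the others below it. Its mean was -0.51 ± 1.08 (SD, n = 4). KCNRG overlaps TRIM13, at 0.25, and the noncoding gene DLEU2 in the reference table, and the part of that overlap was not tested. The highest KCNAB gene, the beta subunits of the Shaker family, was KCNAB3, at -0.60, -1.03, -1.82 and -0.87, with a mean of -1.08 ± 0.52 (SD, n = 4). The 5 KCNE genes, small membrane partners of KCNQ and other channels, ranged from -3.41 (KCNE3) to -1.32 (KCNE5). The 4 KCNIP genes, calcium-binding partners of the KCND channels, ranged from -2.84 (KCNIP1) to -1.52 (KCNIP2).

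**Figure D3:**
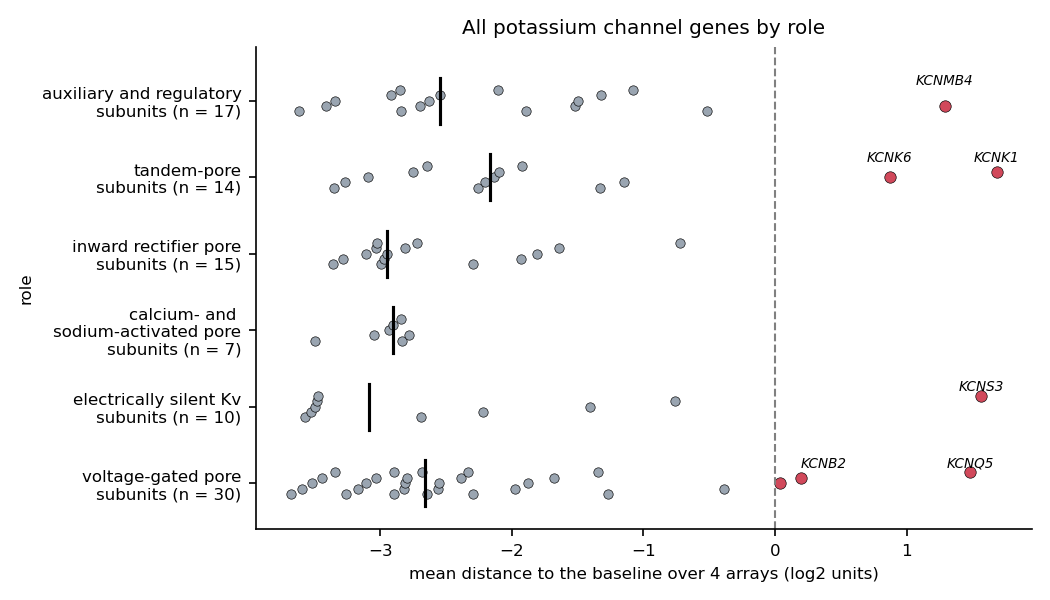
Mean distance to the baseline over 4 arrays (log2 units, horizontal axis) of all 93 potassium channel genes, 1 point per gene, in 6 roles (vertical axis), with a black bar at each role's median. The 7 red points, 6 of them named, lie right of the dashed baseline, and the role medians lie between -3.08 and -2.17.

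Some members had probes on both sides of the baseline or targets that lay apart. Of the 357 member probes 21 (5.88%) had a mean above the baseline, against 43.2% of all probes. More than 1 target was present for 17 members, and in 6 of these the targets lay over 1 log2 unit apart. For KCNC4 the target NM_004978 was above the baseline on all 4 arrays, at 0.39, 0.59, 0.07 and 0.98, while NM_001039574 lay at -1.28, so that with the highest target in place of the mean the gene stood at 0.47 (limma adjusted p = 0.194). For KCNMB3 the 4 targets ranged from -3.00 to -0.45. The means given above for KCND3 and KCNIP2 also average targets that lay apart, at -3.13 and -0.82 for KCND3 and at -2.30 and -0.74 for KCNIP2. These targets are transcript variants by design, and the probe sequences were not used here, so an isoform and a difference in probe affinity cannot be told apart. In all, 4 of the 86 members below the baseline, among them KCNC4, KCNRG and KCNMB3, had at least 1 probe with a mean above it. This count and that of members with targets apart were not made for all named genes. Neither is therefore read as particular to potassium channel genes.

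**Figure D4:**
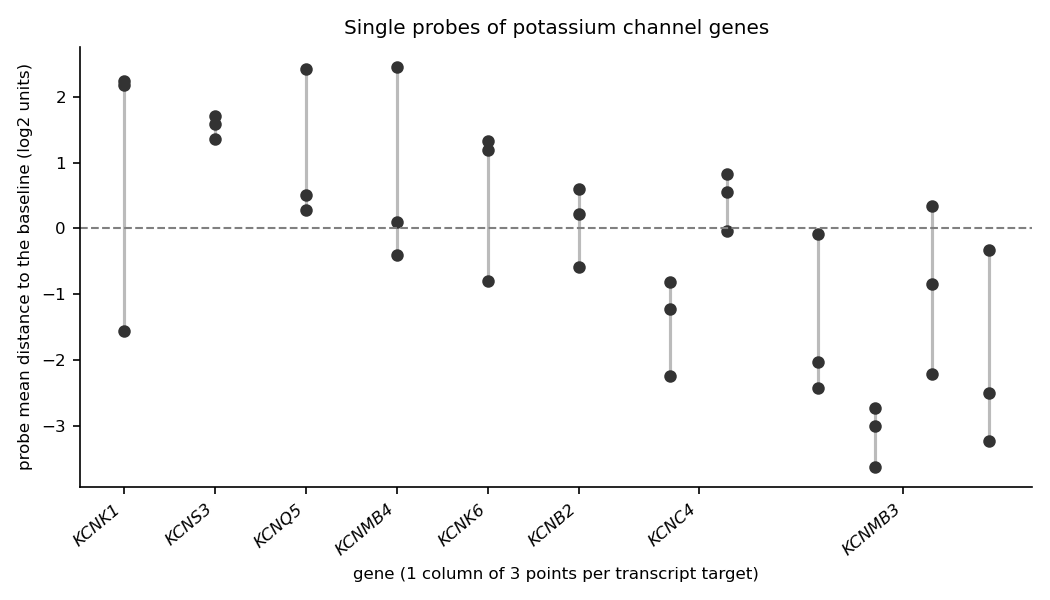
Mean distance to the baseline over 4 arrays (log2 units, vertical axis) of each probe of 8 potassium channel genes, with 1 column of 3 points per transcript target. The probes of KCNS3 lie within 1.36 to 1.71, while KCNK1 has a probe at -1.56 beside 2.18 and 2.24, and the targets of KCNC4 and of KCNMB3 differ from each other.

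In the median, the level of a member spread more over the arrays than that of all named genes, and its distance less. The median SD over the 4 arrays was 0.56 log2 units for the level of a member and 0.42 for that of all named genes, and for the distance it was 0.52 and 0.63. Single arrays, replicates 1 to 4 in turn, put 7, 7, 5 and 8 members above the baseline. Of all named genes 58.1%, 54.2%, 47.4% and 50.2% were above it in turn. Replicates 1 and 2 share one distribution of probe values and replicates 3 and 4 another, and these pairs taken alone gave 8 and 6 members above the baseline, of which limma called 5 and 4. These pairs put 55.9% and 48.8% of all named genes above it, and limma called 47.9% and 39.9%. The values of KCNG1 were higher on replicates 2 and 4 than on replicates 1 and 3 before subtraction, at 9.79 and 9.87 against 9.24 and 8.50, and those of KCNRG were lower, at 8.93 and 8.98 against 10.54 and 9.91.

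The partners of potassium channels and the other carriers of potassium were taken as a list of 47 genes, of which 46 were matched. Of these 17 were above the baseline (37.0%, against 52.7% of all named genes) and 16 were called by limma (34.8%, against 45.9%), with a median distance of -1.25. The sodium-potassium pump, which builds the potassium gradient, had 7 of 14 listed subunits and regulators above the baseline (50%, close to the 52.7% of all genes), among them ATP1B1 at 3.70 ± 0.85, ATP1B3 at 4.28 ± 0.76 and FXYD5 at 4.78 ± 0.52 (SD, n = 4 for each). Cation-chloride cotransporters gave 3 of 6, the same share, with SLC12A7 at 1.86 ± 0.63 (SD, n = 4) above on all 4 arrays. Cytoplasmic partners gave 5 of 5, among them the calmodulin genes CALM2 and CALM3, the anchoring protein AKAP9 and the ubiquitin ligase NEDD4L, which serve many other proteins too. Membrane partners that are particular to channels were below: the sulfonylurea receptors ABCC8 at -3.03 ± 0.56 and ABCC9 at -3.58 ± 0.35 of the ATP-sensitive channel, 3 of 3 matched BK gamma subunits, and DPP6 and DPP10 of the KCND channels (SD, n = 4 for each). AMIGO1, a partner of the KCNB channels, was at -0.11 ± 0.17 (SD, n = 4). None of 10 HCN and cyclic nucleotide-gated channels, the relatives of Kv channels that pass cations less selectively, was above the baseline by mean, with HCN2 nearest at -0.08 ± 0.50 (SD, n = 4) and 0 called by limma. Of 3 intracellular potassium channels 2 were above the baseline. TMEM38B stood at 2.11 ± 0.83 and TMEM38A, below it by mean, at -0.78 ± 1.17 (SD, n = 4 for each). The lysosomal TMEM175 was above on all 4 arrays, with a mean of 0.52 ± 0.33 (SD, n = 4), but was not called (limma adjusted p = 0.148).

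The sequence just upstream of the genes was then compared, because genes used in most cells often start in stretches rich in the dinucleotide CG. RefSeq promoters of build GRCh38.p14 were matched for 71 of 93 members, and the 250 bases before the start were read. Only the first promoter listed for a gene was used, and it need not be the start used in these cells. The motif CG reads the same on both strands, and 97.1% of all 13807 matched promoters held it. The promoters of 4 matched members above the baseline held 11 to 30 CG with a median of 16, and those of 67 members below it 0 to 46 with a median of 15. Over all genes the medians were 22 above and 9 below. The difference between members rests on 4 promoters and was not tested. The pair with the largest mean distances and the pair with the lowest are shown, with CG in capitals, so that the spread of CG within each pair can be seen.
KCNK1, chr1:233613856-233614105, + strand: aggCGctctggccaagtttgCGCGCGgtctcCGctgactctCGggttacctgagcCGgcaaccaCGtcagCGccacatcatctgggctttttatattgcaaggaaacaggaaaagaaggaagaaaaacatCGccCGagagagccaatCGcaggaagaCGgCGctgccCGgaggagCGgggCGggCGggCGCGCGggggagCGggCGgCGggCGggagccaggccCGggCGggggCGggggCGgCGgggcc
KCNS3, chr2:17877597-17877846, + strand: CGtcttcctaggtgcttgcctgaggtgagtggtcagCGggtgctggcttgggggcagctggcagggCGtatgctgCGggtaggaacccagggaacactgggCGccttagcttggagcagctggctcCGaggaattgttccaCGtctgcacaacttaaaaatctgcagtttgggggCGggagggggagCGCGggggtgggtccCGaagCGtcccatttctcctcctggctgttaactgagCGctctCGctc
KCND2, chr7:120272925-120273174, + strand: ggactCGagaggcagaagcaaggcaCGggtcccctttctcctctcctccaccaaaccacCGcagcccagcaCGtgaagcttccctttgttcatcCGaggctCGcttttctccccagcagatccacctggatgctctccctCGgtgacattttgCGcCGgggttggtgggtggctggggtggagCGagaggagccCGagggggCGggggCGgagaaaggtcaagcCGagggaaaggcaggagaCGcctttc
KCNMB2, chr3:178536186-178536435, + strand: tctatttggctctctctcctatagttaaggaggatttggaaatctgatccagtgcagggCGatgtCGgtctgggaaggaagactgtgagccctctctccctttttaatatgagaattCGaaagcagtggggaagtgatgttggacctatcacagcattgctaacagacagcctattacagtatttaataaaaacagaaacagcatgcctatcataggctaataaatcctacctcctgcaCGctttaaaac
KCNK1 held 30 CG and KCNMB2 held 4, but KCNS3, above the baseline on all 4 arrays, held 14 and KCND2, the lowest of the 93 members, held 15. A count of CG in this window is a description of the reference sequence and says nothing of methylation in these cells.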

How the data were processed

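RNA from 4 cultures of HEK293 cells was copied from an oligo(dT) primer into double-stranded cDNA, Cy3-labelled, and put on single-colour NimbleGen human arrays. The deposited table gives each probe 1 log2 value on each array. The submitters' processing notes name RMA, with no role. The table held 71998 probes of 24000 targets, of which 23999 had 3 probes. Sorted values of replicates 1 and 2, and of 3 and 4, lay within 0.01 of each other at 99.97% and 99.99% of ranks, as normalization in pairs gives. Arrays shared at most 8 identical probe values, so each was counted as 1 replicate, and their number limits the precision. Replicates 1 and 3, and 2 and 4, resembled each other most, so p-values may treat the arrays as more independent than they are.

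Here the probes of each target were averaged on the linear scale and log2 transformed, and targets of one gene were averaged as log2 values. Names, neighbours and promoters came from RefSeq tables of GRCh38.p14, through unversioned accessions, which named 19125 targets. The study's rule gave the baseline, the mean plus 2 SD of 10 matched seminal genes of 11 listed. limma 3.58 in R 4.3 tested distances one-sided against 0 with Benjamini-Hochberg adjustment at 0.05 over 17217 genes. A run on simulated data came first. It set genes without signal well below 0 and drew arrays independently, so it could not show false calls near 0. The limma prior made the standard error of every gene 0.351. An array's baseline shifts all genes together, so tests are not independent, and the smallest p of an exact one-sided sign-flip test is 0.0625 with 4 arrays. Every KCN gene could be named, with values per array for those above the baseline and the 5 nearest below, except some genes that are tested and counted but not reported here. The members and lists were chosen with earlier results of these data known.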

Additional observations from a re-analysis of the deposited data

Results flagged for a closer look

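In 3 of 93 members the gap between an extreme array and its nearest neighbour, as a share of the range over the 4 arrays, was above 0.829, Dixon's critical value. Chance alone marks about 1 in 20, or 4.65 of 93. The distance of KCNG1 on replicate 3 was -2.20 against -0.45 to -0.14 on the others, a ratio of 0.849. That of KCNG4, another silent subunit, on replicate 3 was -3.95 against -3.38 to -3.32, a ratio of 0.908. That of KCNH1, a relative of KCNH2, on replicate 1 was -1.95 against -3.70 to -3.45, a ratio of 0.861. In the log2 levels before subtraction the ratios were 0.540, 0.571 and 0.510, all under the critical value, while 4 other members were above it there, KCNAB3 at 0.932, KCNIP3 at 0.888, KCNJ13 at 0.867 and KCNK15 at 0.955.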

How the results depend on the processing

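The pairs of replicates 1 and 2 and of 3 and 4 were added after the data were examined. Members above the baseline numbered 14 with 1 SD, 3 with 3 SD, 36 without SPATA5 and SPATA13, 28 with olfactory controls, 22 with the median and scaled median absolute deviation (MAD), and 4 when all 4 arrays had to be above. Leaving out 1 replicate gave 5 to 7. Of all named genes 50.6% to 54.3% were then above the baseline, and limma called 43.4% to 47.2%. limma called 9 members with 1 SD, 0 with 3 SD (0 also at an unadjusted p under 0.05), 22 without SPATA5 and SPATA13, 20 with olfactory controls and 12 with the MAD, and 4 to 5 with 1 replicate left out. Of all genes limma called 58.9% with 1 SD, 28.6% with 3 SD, 68.6% without SPATA5 and SPATA13, 66.3% with olfactory controls and 62.3% with the MAD, and 64.3%, 39.1%, 74.0%, 71.4% and 67.7% were above these baselines in turn. The gap to other genes was -36.1 points with 3 SD, -35.5 without SPATA5 and SPATA13, -52.0 with the lowest of 4 equal bins of genes left out (which left 38 members) and -41.0 when all 4 arrays had to be above, and kept its sign throughout. The other 37 alternative values of these 3 results stayed within 1.5 times (counts) or 1 SD of the reported value.

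Signs of single genes turned mostly with the baseline. With 1 SD the distances were 0.24 for KCNAB3, 0.93 for KCNC4, 0.56 for KCNG1, 0.0448 for KCNH2, 0.60 for KCNJ14 and 0.80 for KCNRG. With 3 SD they were -1.12 for KCNB2, -0.45 for KCNK6 and -0.0263 for KCNMB4. Without SPATA5 and SPATA13 they were 0.98 for KCNA3, 1.25 for KCNAB3, 1.94 for KCNC4, 1.57 for KCNG1, 1.05 for KCNH2, 0.68 for KCNJ11, 1.61 for KCNJ14, 0.0688 for KCNK2, 0.23 for KCNK3 and 1.81 for KCNRG. With olfactory controls they were 0.74 for KCNA3, 1.01 for KCNAB3, 1.70 for KCNC4, 1.33 for KCNG1, 0.81 for KCNH2, 0.44 for KCNJ11, 1.36 for KCNJ14 and 1.57 for KCNRG. With the MAD they were 0.36 for KCNA3, 0.63 for KCNAB3, 1.32 for KCNC4, 0.95 for KCNG1, 0.43 for KCNH2, 0.0635 for KCNJ11, 0.98 for KCNJ14 and 1.19 for KCNRG. The highest target gave 0.47 for KCNC4, replicates 1 and 2 alone 0.0318 for KCNRG, and replicates 3 and 4 alone -0.16 for KCNB2. Leaving out 1 replicate gave -0.0877 to 0.60 for KCNB2. A higher or lower baseline moves every gene by construction; for the other changes the cause was not tested. Under 3 SD KCNK1, KCNS3 and KCNQ5 no longer passed the limma test. No paired analysis was possible because there is 1 group. Raw intensities were not used here, so signal over background was not examined.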
